A study of Mus musculus with 21 samples.

Results

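The solute carrier (Slc) genes measured in *Ebf1*-deficient LP cells, a mouse lymphoid progenitor line of C57BL6/J origin, were examined in 15 QuantSeq libraries and in the ChIP-seq peaks of Zbtb1 and Cbfa2t3. A gene was counted when its symbol read Slc, a number, the letter a and a number, when it was protein-coding, and when its mean over the 15 libraries was at least 1 CPM (read counts brought to a common library total, a unit named TPM by the authors). Of 55421 genes in the table, 351 had such a symbol, 343 of these were protein-coding and 153 reached the mean, from 42 families. The genes were thus chosen by their measured level, which is given below as a description only. Of the 190 protein-coding Slc genes under the mean, 132 were at 0 in all 15 libraries. Just inside the limit were *Slc22a5* (1.22 CPM) and *Slc37a2* (1.07 CPM), and just outside were *Slc25a35* (0.755 CPM) and *Slc6a8* (0.719 CPM). The symbol pattern left out families that use another letter, such as Slc35b to Slc35f, and the Slco carriers. It also took in 4 genes that are not carriers themselves: *Slc9a3r1* and *Slc9a3r2*, scaffold proteins that bind sodium/proton exchangers, and *Slc4a1ap* and *Slc7a6os*, which are named after neighbouring or interacting genes. The remaining 149 were carriers.

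All cells lacked *Ebf1*, the transcription factor that commits progenitors to the B lineage, expressed Cas9, and were grown on OP9 stromal cells with SCF, IL-7 and Flt3L and without Notch stimulation. They received sgRNAs against luciferase (sgControl) or against *Lmo2*, *Zbtb1*, *Cbfa2t2* or *Cbfa2t3*, and cells carrying Cas9 and the sgRNA were sorted 5 days later, with 3 libraries for each of the 5 targets. Each target was addressed with a pool of 2 guides, so that sgZbtb1 and the other names stand for pools, and the sorted cells hold a mixture of edits. The study describes the 3 as independent biological replicates of 1 cell line, so the spread between them does not include differences between lines or animals. ChIP-seq was performed on the same line without sgRNA, and each factor has 1 list of peaks found reproducibly in 2 replicates.

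Solute carriers are membrane proteins that move small molecules across the plasma membrane and the membranes of organelles, by letting them run down a gradient or by coupling them to the movement of sodium, protons or another solute. Amino acid, glucose, nucleoside and metal carriers feed growing cells, monocarboxylate carriers pass lactate and pyruvate, and the Slc25 family links the cytosol with the mitochondrial matrix. In lymphocytes the best known are the glucose carrier *Slc2a1*, the glutamine carrier *Slc1a5* and the heterodimer of *Slc3a2* with *Slc7a5*, which imports large neutral amino acids. Zbtb1 is a zinc finger transcription factor of the BTB family, Lmo2 is a bridging factor of transcription factor complexes, and Cbfa2t2 and Cbfa2t3 are corepressors of the ETO family.

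The libraries held 1705416 to 2095447 reads, so that 3 reads, the smallest amount taken as measurable here, were worth 1.43 to 1.76 CPM, a floor that covers counting error only. The mRNA of the targeted genes did not fall with the labels. *Zbtb1* was at 94.4, 113 and 109 CPM in the libraries labelled sgZbtb1 against 62.7, 66.6 and 55.7 CPM in those labelled sgControl (limma adjusted p = 0.00102), and *Cbfa2t3* was at 340.5 to 364 CPM in the libraries labelled sgCbfa2t3 against 172 to 210 CPM (limma adjusted p = 1.67e-07). *Lmo2* and *Cbfa2t2* did not pass the limma test (adjusted p = 0.956 and 0.412). Reads near the 3′ end need not be lost when a coding exon is cut, so these levels do not show whether the proteins were lost. The study examined the targeted proteins by immunoblotting, which is not analysed here, and directions below refer to libraries by their label. *Ebf1* reads were present too, at 305 to 366 CPM in sgControl. All 12 lymphoid progenitor markers were measured at a mean of at least 1 CPM, with a sum of 2200 to 2654 CPM per library. The 12 OP9 stroma markers summed to 1.96 to 14.2 CPM, with Col3a1, Col5a1, Lum, Dcn and Postn at 0. Myeloid markers summed to 288 to 400 CPM and erythroid markers to 670 to 951 CPM.

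The 153 genes together took 0.66% to 0.73% of the reads in every library. The libraries of each gene-targeting sgRNA overlapped those of sgControl in this share, while all 3 of sgZbtb1 (0.673% to 0.688%) lay below all 3 of sgCbfa2t2 (0.693% to 0.721%), a difference that was not tested. The median level of the 153 genes was 17.9 CPM, against 25.4 CPM for all 11554 genes with a mean of at least 1 CPM. QuantSeq reads each mRNA once near its 3′ end, so these levels need no division by length. At 100 CPM or more there were 17 of the genes, at 10 to 100 CPM 88, and under 10 CPM 48. At or under 3 reads in at least 1 library were 31, of which 14 were at 0 in at least 1 library. The 10 most abundant held 40.6% of the summed level.

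Mitochondrial carriers made up the largest share of that sum, 33.8% from 36 genes. The highest was *Slc25a3*, the phosphate carrier of the inner membrane, at 617 CPM on average and 533 to 682 CPM over the 15 libraries. The ADP/ATP carriers *Slc25a5* and *Slc25a4* followed at 250.5 and 220.1 CPM. The 18 amino acid carriers held 27.1% of the sum. Among them the neutral amino acid carriers *Slc38a1* and *Slc38a2* stood at 340.2 and 331 CPM, and *Slc38a1* ranged only from 303 to 376 CPM. The cationic amino acid carrier *Slc7a1* (258 CPM), the heavy chain *Slc3a2* (244 CPM) and *Slc38a10* (165 CPM) came next. Outside these roles, the taurine carrier *Slc6a6* was at 214 CPM and the zinc importer *Slc39a6* at 166 CPM, which completes the 10 highest. Replicates overlapped between neighbours in this order, as with *Slc38a1* and *Slc38a2* or *Slc7a1* and *Slc25a5*.

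**Figure D1:**
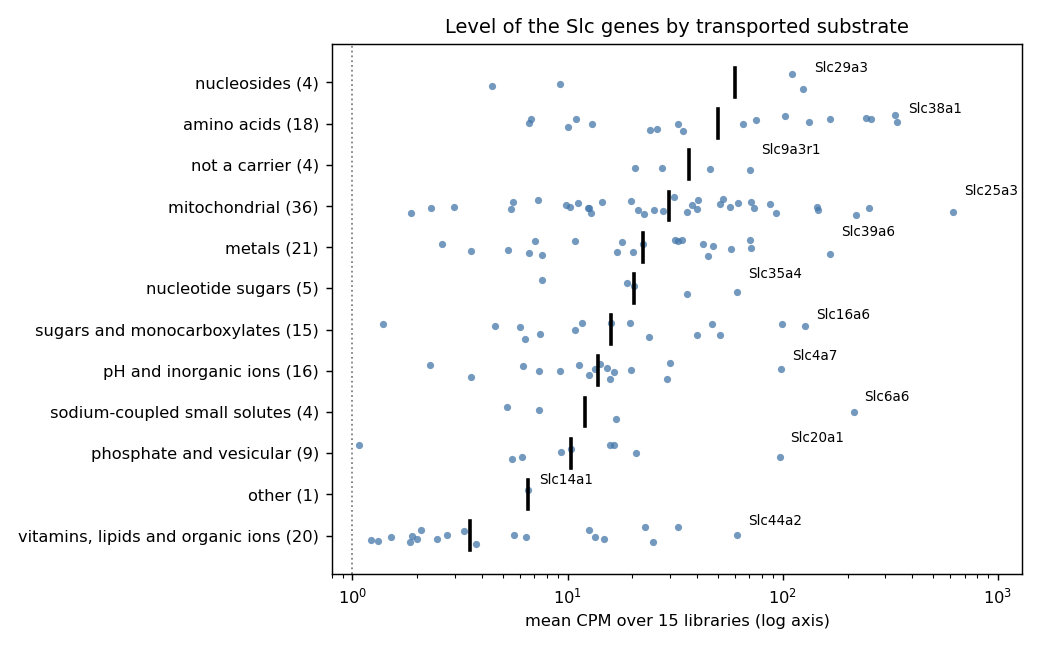
Mean level of each of the 153 Slc genes over the 15 libraries (CPM, log axis), by the substrate of its family. Each point is 1 gene, the black bar is the median of the group, the number of genes is in brackets and the highest gene is named. Slc25a3 at 617 CPM is the highest point, and the 20 genes for vitamins, lipids and organic ions have the lowest median of the groups with more than 1 gene, 3.53 CPM.

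The highest member of each other role was *Slc29a3*, a lysosomal nucleoside carrier (124 CPM), *Slc16a6*, a monocarboxylate family member (127 CPM), *Slc4a7*, a sodium bicarbonate cotransporter (98.6 CPM), *Slc20a1*, a sodium phosphate cotransporter (96.6 CPM), *Slc35a4* of the nucleotide sugar family (61.5 CPM), *Slc44a2*, a choline-like carrier (61.3 CPM), and the urea carrier *Slc14a1* (6.57 CPM). Exons of Amz2 overlap *Slc16a6* on the other strand within its last 1000 bases, and whether counting used strand is not given. Of the carriers best known in lymphocytes, which were picked after their values were seen, *Slc7a5* was at 132 CPM, *Slc1a5* at 103 CPM, the lactate carrier *Slc16a1* at 99.3 CPM, and the glucose carriers *Slc2a1* and *Slc2a3* at 51.1 and 23.8 CPM. Vitamin, lipid and organic ion carriers had the lowest median, 3.53 CPM over 20 genes. The 4 genes that are not carriers were at 20.6 to 70.3 CPM.

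Changes were tested with limma on log2(CPM + 1) over the 11554 genes, and a gene was called when its Benjamini-Hochberg adjusted p was under 0.05. Fold changes on this scale understate the change of genes at a few CPM. In all 5 comparisons together 7 of the 153 genes were called, each in 1 comparison, and 146 were not. The share of all genes called in any comparison was not computed, so this count is not read against a background. The shares by comparison are given below. The 4 comparisons with sgControl share the same 3 control libraries. In bulk libraries, fewer cells with a transcript and less transcript per cell cannot be told apart. The precision followed the level: the median standard error of a log2 fold change was 0.12 for genes at 100 CPM or more, 0.25 at 10 to 100 CPM and 0.50 under 10 CPM. The 95% interval of the change lay within 1 log2 unit of 0 for 93 to 102 of the 153 genes by comparison, and for all 17 genes at 100 CPM or more in each of the 5. For the other genes, most of them under 10 CPM, the interval reached beyond 1 log2 unit, so that a change of this size could be missed at this depth.

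**Figure D2:**
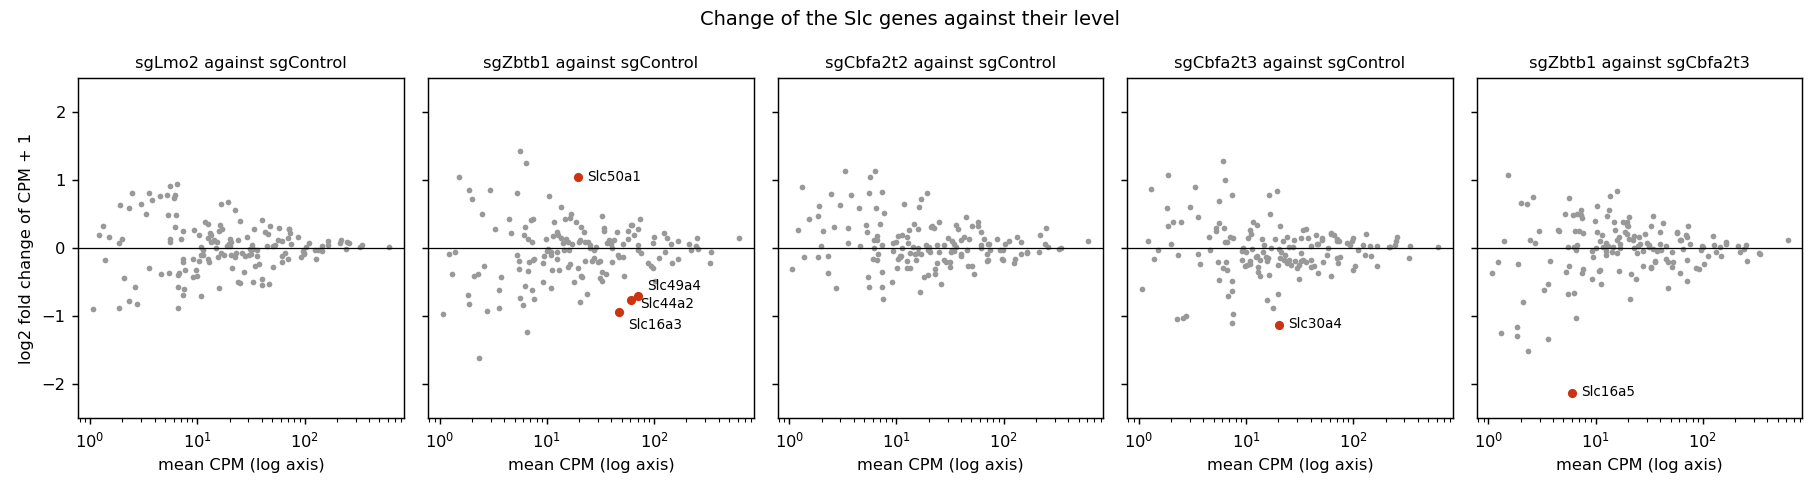
Log2 fold change of CPM + 1 (vertical axis) against mean CPM over the 15 libraries (log axis) for 152 of the Slc genes, 1 panel per comparison. Grey points did not pass the adjusted p threshold and red points did. The spread widens below 10 CPM, the panel for sgZbtb1 against sgControl holds 4 red points, and the panels for sgLmo2 and sgCbfa2t2 hold none.

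In the libraries labelled sgZbtb1, 4 carriers were lower than in sgControl and 1 was higher. The choline-like carrier *Slc44a2*, the lysosomal carrier *Slc49a4* and the lactate exporter *Slc16a3* were among those that fell, and the sugar carrier *Slc50a1* rose. These 5 were 3.27% of the 153 genes, where 4.79% of all genes in the fit were called (1.85% higher and 2.94% lower), so the share was near the background and is no result about the carriers as a group. The median log2 fold change was -0.03 over the 153 and -0.03 over all genes. Without overlap between the 3 and 3 libraries were 25 of the 153 genes (16.3%), against 22.9% of all genes, and at an unadjusted p under 0.05 were 21 (13.7%), against 17.6%.

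*Slc44a2* was measured at 63.3, 74.1 and 78.0 CPM in sgControl and at 39.7, 44.0 and 41.2 CPM in sgZbtb1. All 3 libraries labelled sgZbtb1 lay below all of the others, whatever the sgRNA. The log2 fold change was -0.77 (95% interval -1.10 to -0.43, SE 0.17, limma adjusted p = 0.00183). The call held under each of 15 other settings, with changes between -0.85 and -0.60. In sgCbfa2t3 the values were 48.3, 54.8 and 58.2 CPM, between sgZbtb1 and sgControl, with a difference from sgControl that did not pass the test (-0.41, adjusted p = 0.357).

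*Slc49a4*, a lysosomal member of a family named for heme export, was measured at 70.8, 86.8 and 75.1 CPM in sgControl and at 44.1, 47.8 and 50.1 CPM in sgZbtb1. The 2 groups did not overlap, and 1 sgCbfa2t2 library, at 47.4 CPM, lay within the range of sgZbtb1. The change was -0.70 (95% interval -1.03 to -0.36, adjusted p = 0.00589), and it missed the threshold without sgControl replicate 2 (-0.61, adjusted p = 0.0576). The highest mean was that of sgLmo2, with libraries at 83.1, 110.5 and 91.5 CPM, which did not pass the test against sgControl (0.28, adjusted p = 0.899).

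*Slc16a3*, which exports lactate from glycolytic cells, was measured at 63.9, 77.0 and 43.4 CPM in sgControl and at 37.4, 39.7 and 19.1 CPM in sgZbtb1. The lowest library of sgControl stood little above the highest of sgZbtb1. The third library was the lowest in both, as it was in sgLmo2 and sgCbfa2t2 but not in sgCbfa2t3. The change was -0.94 (95% interval -1.41 to -0.48, adjusted p = 0.00683). The call was lost without sgControl replicate 2 (-0.76, adjusted p = 0.0973) and without sgZbtb1 replicate 3 (-0.62, adjusted p = 0.172), and with the 9 libraries of sgLmo2, sgCbfa2t2 and sgCbfa2t3 in place of sgControl it was -0.56 (adjusted p = 0.0788). With DESeq2 on the recovered reads the change was -0.92 (adjusted p = 0.131). Its partner in lactate transport, *Slc16a1*, was measured at 83.6, 108 and 97.3 CPM in sgControl and at 117, 105 and 102 CPM in sgZbtb1. These overlapped, and the difference of 0.17 (95% interval -0.10 to 0.43) did not pass the test.

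*Slc50a1* was measured at 6.97, 10.997 and 18.2 CPM in sgControl and at 29.6, 21.99 and 22.09 CPM in sgZbtb1. The change was 1.05 (95% interval 0.46 to 1.63, adjusted p = 0.0209). It missed the threshold without sgControl replicate 1 (0.74, adjusted p = 0.185), sgControl replicate 2 (1.04, 0.0624), sgZbtb1 replicate 1 (0.91, 0.119) or sgZbtb1 replicate 3 (1.12, 0.0507). The means of the other sgRNAs were also above that of sgControl, with libraries at 14.7 to 21.5 CPM in sgLmo2, 18.4 to 22.9 CPM in sgCbfa2t2 and 17.2 to 26.3 CPM in sgCbfa2t3. The lowest libraries of sgLmo2 and sgCbfa2t3 lay below the highest of sgControl. With the 9 libraries of sgLmo2, sgCbfa2t2 and sgCbfa2t3 in place of sgControl, the change in sgZbtb1 was 0.27 (adjusted p = 0.653).

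**Figure D3:**
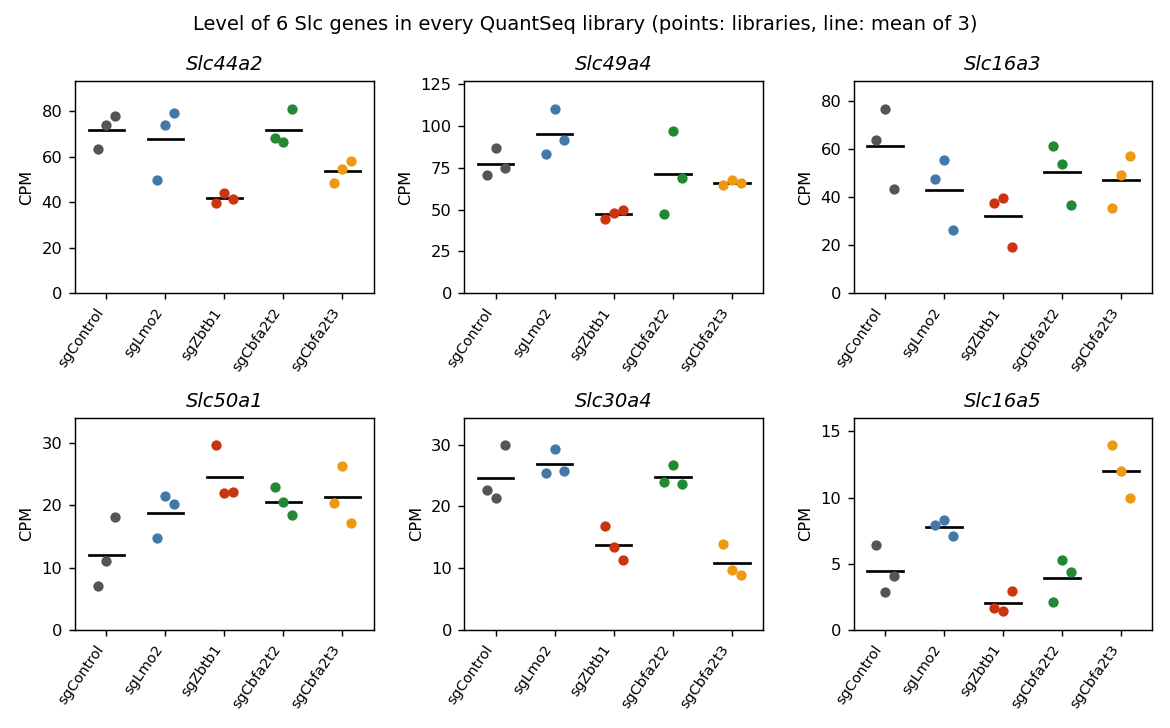
Level in CPM of 6 Slc genes that passed the threshold in a comparison, in each of the 15 libraries (points) with the mean of the 3 libraries of each sgRNA (black line); each vertical axis starts at 0. The libraries labelled sgZbtb1 are the 3 lowest for Slc44a2, at 39.7 to 44.0 CPM, and those labelled sgCbfa2t3 are the 3 highest for Slc16a5, at 9.97 to 13.9 CPM.

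Just outside the threshold in this comparison was *Slc1a5*, the glutamine carrier, named after its values were seen. It was at 112, 103 and 116 CPM in sgControl and at 78.8, 99.9 and 60.9 CPM in sgZbtb1, all 3 lower, with a change of -0.49 (adjusted p = 0.0542). It was called with the 6 libraries alone, with the replicate block, with the 9 other gene-targeting libraries as controls and without sgZbtb1 replicate 2. Roles were assigned by family number, so a gene can differ from its label, as with *Slc16a10*, which counts under sugars and monocarboxylates. The called genes described above were 1 of 21 labelled metals (*Slc49a4*), 2 of 15 labelled sugars and monocarboxylates and 1 of 20 labelled vitamins, lipids and organic ions. With all 15 libraries and no block, limma called no amino acid carrier of 18 (3 at an unadjusted p under 0.05), no mitochondrial carrier of 36 (4), no nucleoside carrier of 4 (0) and no nucleotide sugar carrier of 5 (1). Over all genes 4.79% were called and 17.6% had that unadjusted p, and nothing is read from these small counts. Of the 10 most abundant genes none was called, and their changes lay between -0.22 (*Slc38a2*) and 0.15 (*Slc25a5* and *Slc25a3*). The 4 genes that are not carriers had changes of -0.09 to 0.31. Markers moved in the same libraries: T markers summed to 178 to 254 CPM in sgZbtb1 and 393 to 422 CPM in sgControl, with Cd8a and Ptcra at 0 throughout, and 2 of the 4 tested (Thy1 and Lck) fell. Early B markers summed to 297 to 353 CPM against 398 to 460 CPM, with Cd79a and Vpreb3 at 0, and 2 of 7 (Ebf1 and Pax5) fell. Ebf1, which the line lacks by its label, went from a mean of 336 to 217 CPM in this sum, and the median change of the 7 was 0.05. Of the lymphoid progenitor markers, Kit, Runx1, Ly6d and Ptprc fell and Cd93 and Cd34 rose by limma, 6 of 12. In this list edgeR and DESeq2 each called 5. The part of the markers in the changes of the 5 carriers was not tested.

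In the libraries labelled sgCbfa2t3, 1 of the 153 genes was called (0.654%, with 0.537% of all genes called and 0.407% called lower). This was *Slc30a4*, a zinc exporter that fills intracellular vesicles. It was measured at 22.6, 21.4 and 29.9 CPM in sgControl and at 13.9, 9.71 and 8.86 CPM in sgCbfa2t3. The 2 groups did not overlap, and sgZbtb1, at 16.8, 13.4 and 11.3 CPM, also lay below sgControl. The change in sgCbfa2t3 was -1.13 (95% interval -1.68 to -0.57, adjusted p = 0.0294), and in sgZbtb1 it was -0.79 and did not pass the test (adjusted p = 0.0799). Between the 2 pools it differed by 0.33 (95% interval -0.22 to 0.88), which did not pass the test. The libraries of sgLmo2 and sgCbfa2t2 held 25.4 to 29.3 and 23.7 to 26.7 CPM, within or close to the range of sgControl. An exon of 4930417H01Rik overlaps it on the other strand. The call was lost without sgControl replicate 1, 2 or 3 (adjusted p = 0.0668, 0.08 and 0.24) and without sgCbfa2t3 replicate 2 or 3 (0.11 and 0.13), and in 8 of the 14 other settings in all, with changes of -1.31 to -0.91. T markers summed to 280 to 328 CPM in sgCbfa2t3, and of the marker lists 1 of 12 lymphoid progenitor markers (Ly6d) and 1 of 4 T markers (Thy1) fell there by limma, which called none of 7 early B markers (3 at an unadjusted p under 0.05). DESeq2 called 2, 1 and 1 of these 3 lists. Of 2 erythroid markers tested, Hbb-bt rose by limma and DESeq2 called neither, and the summed erythroid level of 826 to 951 CPM overlapped the 830 to 897 CPM of sgControl. The part of these markers in the change of *Slc30a4* was not tested.

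The next smallest p-values in sgCbfa2t3 were those of *Slc50a1* (0.84, adjusted p = 0.233) and *Slc16a5* (1.29, adjusted p = 0.237), neither of which passed the threshold. The highest of the metal carriers, the zinc importer *Slc39a6*, was at 146 ± 18.4 CPM (SD, n = 3) in sgCbfa2t3 and 176 ± 25.8 CPM in sgControl, with a limma change of -0.26 (adjusted p = 0.423). Of the 21 metal carriers 11 had a change above 0 and 10 below, with a median of 0.00 on the log2 scale. Of the 16 carriers for pH and inorganic ions 13 had a change below 0, as did 5937 of all 11554 genes, with a median of -0.18 against -0.01 for all genes, and none was called by limma, with 5 of the 16 at an unadjusted p under 0.05. At an unadjusted p under 0.05 were 14 of the 153 genes (9.15%, against 10.6% of all genes), and 18 (11.8%) did not overlap between the groups, against 15.8% of all genes.

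In the libraries labelled sgLmo2 none of the 153 genes was called by limma, by edgeR or by DESeq2, where 0.0173% of all genes were called by limma. At an unadjusted p under 0.05 there were 10 (6.54%), against 5.65% of all genes. The 3 with the smallest p were *Slc25a28*, a mitochondrial iron carrier, *Slc50a1* and *Slc16a3*. *Slc25a28* was at 56.3, 36.5 and 48.1 CPM in sgControl and at 31.7, 33.7 and 29.6 CPM in sgLmo2, without overlap, and its change of -0.53 had an adjusted p of 0.812. *Slc50a1* differed by 0.68 (adjusted p = 0.849) and *Slc16a3* by -0.53 (adjusted p = 0.857). The role labelled sodium-coupled small solutes held 4 genes, of the Slc5 and Slc6 families only. Other sodium-coupled carriers, such as *Slc4a7* and *Slc20a1*, were counted under other roles, so this role does not stand for all of them. All 4 genes of the Slc5 and Slc6 families had a change above 0 (median 0.46), where 6043 of the 11554 genes did. Against the same control libraries this was so for 4 of 4 in sgZbtb1 (median 0.47), 3 of 4 in sgCbfa2t2 (0.53) and 4 of 4 in sgCbfa2t3 (0.40), where 5400, 5854 and 5617 of all genes did. None of the 4 was called by limma in any of these, with 0 or 1 at an unadjusted p under 0.05. Without overlap between the 3 and 3 libraries were 14 of the 153 genes (9.15%), against 10.6% of all genes.

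In the libraries labelled sgCbfa2t2 none of the 153 genes was called by limma, by edgeR or by DESeq2, where 0.147% of all genes were called by limma, though DESeq2 gave 131 of the 153 no adjusted p. At an unadjusted p under 0.05 there were 11 (7.19%), against 9.56% of all genes, and 19 (12.4%) did not overlap between the groups, against 13.7%. *Slc50a1* differed by 0.81 (adjusted p = 0.318), *Slc25a5* by 0.30 (adjusted p = 0.337) and the myo-inositol carrier *Slc5a3* by 0.73 (adjusted p = 0.409). *Slc5a3* was at 11.03, 10.997 and 12.3 CPM in sgControl, and each of the 12 other libraries was higher, at 13.4 to 24.5 CPM. In none of the 4 comparisons with these control libraries did it pass the threshold, with changes of 0.51 to 0.73. Its exons overlap those of Mrps6 on the same strand, which may share its reads.

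Set directly against each other, the libraries labelled sgZbtb1 and sgCbfa2t3 differed in 1 of the 153 genes (0.654%, with 1.13% of all genes called and 0.822% called lower). This was *Slc16a5*, a monocarboxylate family member of low level. It was measured at 1.68, 1.43 and 2.95 CPM in sgZbtb1 and at 13.9, 12.0 and 9.97 CPM in sgCbfa2t3. Of these, 2 sgZbtb1 libraries were at or under 3 reads, so the lower level is close to the floor. The difference was -2.12 (95% interval -3.02 to -1.23, SE 0.45, limma adjusted p = 0.00259), and the ratio of the mean levels was 0.169. The sgControl libraries do not enter the difference but share in the estimate of spread. With the 6 libraries of the 2 groups alone the adjusted p was 0.00342, and the call held under each of 13 other settings, with differences between -2.56 and -1.99. The mean of sgControl lay between the 2, with libraries at 6.39, 2.89 and 4.10 CPM, of which the lowest fell within the range of sgZbtb1 and none within that of sgCbfa2t3. Against them sgCbfa2t3 was higher by 1.29 (adjusted p = 0.237) and sgZbtb1 differed by -0.84 (adjusted p = 0.331), and neither passed the threshold. The exons of Gm11695 overlap it on the other strand. Markers differed between the same libraries. By limma, Runx1 (-0.66), Ly6d (-0.96), Thy1 (-0.55), Lck (-0.57) and Hbb-bt (-0.71) were called lower in sgZbtb1. These are 2 of 12 lymphoid progenitor, 2 of 4 T and 1 of 2 erythroid markers tested. In these 3 lists edgeR called 2, 1 and 1, and DESeq2 called 2, 1 and 0. None of 7 early B and 6 myeloid markers was called by limma, edgeR or DESeq2, with 1 and 0 at an unadjusted p under 0.05. The part of the markers in the difference of *Slc16a5* was not tested.

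Between these 2 pools *Slc49a4* had the next smallest p-value and did not pass (-0.48, adjusted p = 0.207). At an unadjusted p under 0.05 were 15 of the 153 genes (9.8%, against 10% of all genes), and 20 (13.1%) did not overlap between the groups, against 14.6%. The study's own thresholds were an unadjusted p under 0.05, a log2 fold change beyond 1 and a mean above 10 CPM in either group. With them 0, 2, 1 and 2 of the 153 (0%, 1.31%, 0.654% and 1.31%) passed in sgLmo2, sgZbtb1, sgCbfa2t2 and sgCbfa2t3. Between sgZbtb1 and sgCbfa2t3 2 (1.31%) passed. Of all genes 0.234%, 1.66%, 0.502%, 0.658% and 0.71% passed, in the same order. The plot of changes with their intervals sets 6 of the called genes side by side. The interval of *Slc50a1* lay above 0 in all 4 comparisons with sgControl and reached across 0 between sgZbtb1 and sgCbfa2t3 (0.21, 95% interval -0.38 to 0.79).

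**Figure D4:**
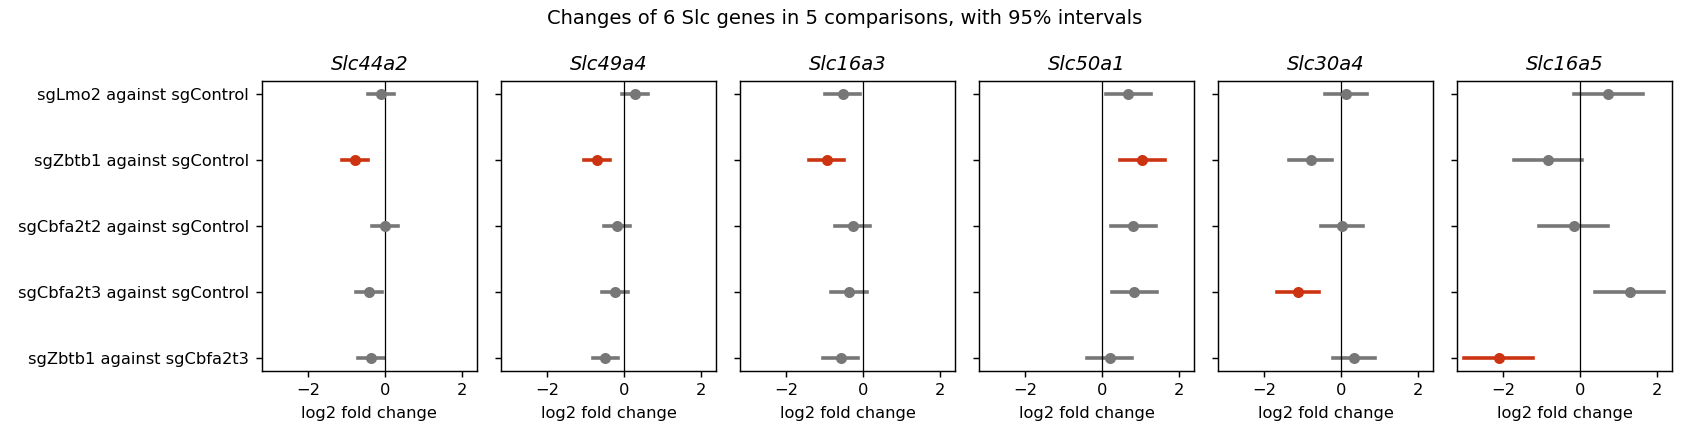
Log2 fold change of CPM + 1 (points, horizontal axis) with its 95% interval (bars) for 6 called Slc genes in each of the 5 comparisons. Red marks an adjusted p under 0.05 and grey the rest; each gene has 1 red bar, and the interval for Slc16a5 between sgZbtb1 and sgCbfa2t3, from -3.02 to -1.23, lies farthest from 0.

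Transport genes outside the symbol pattern were counted in 3 further lists. In these and in the marker lists, a gene without a DESeq2 adjusted p counted as not called. How many of the listed genes had none was not counted. Of 26 carriers under other names that were measured at a mean of at least 1 CPM, such as the Slco, Mfsd and Flvcr genes, none was called in any of the 5 comparisons by limma, edgeR or DESeq2, and 1 to 3 had an unadjusted p under 0.05. Over all genes this was 5.65%, 17.6%, 9.56% and 10.6% in sgLmo2, sgZbtb1, sgCbfa2t2 and sgCbfa2t3 against sgControl and 10% between sgZbtb1 and sgCbfa2t3. Of 11 partner proteins of carriers none was called by these tools either, and 0 or 1 had an unadjusted p under 0.05. Among the 153 are 3 of the partners. Of 34 pumps and ABC transporters, 1 rose and 1 fell in sgZbtb1, where 4.79% of all genes were called, and 7 had an unadjusted p under 0.05, where 17.6% of all genes did. In this list none was called by limma, edgeR or DESeq2 in the other 4 comparisons, with 0 to 5 at an unadjusted p under 0.05. The calcium pump Atp2b4 was at 153 CPM against 99.9 CPM in sgControl on average (0.64, adjusted p = 0.00505), and Abcb9, a lysosomal peptide transporter, was at 6.93 CPM against 18.2 CPM (-1.24, adjusted p = 0.02).

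The peak lists hold 5898 Zbtb1 and 6077 Cbfa2t3 peaks, each with the nearest gene and a normalized score of at least 15. A Zbtb1 peak named 49 of the 153 genes as nearest (32%, 95% Wilson interval 25.2% to 39.8%), against 26.8% of all 11554 genes. A Cbfa2t3 peak named 34 (22.2%, interval 16.4% to 29.4%), against 20.5%. Peaks of the 2 factors that overlapped by at least 1 base named 14 (9.15%, interval 5.53% to 14.8%), against 6.85%. Each interval, which covers counting error only, includes the share of all genes. Of the 62 Zbtb1 peaks of these genes 25 were at promoters (40.3%, against 29.8% of all Zbtb1 peaks), and of the 59 Cbfa2t3 peaks 10 were (16.9% against 12.7%), while 23 lay in introns and 23 between genes. The highest scores, picked after they were seen, were a Zbtb1 peak of 451 in an intron of *Slc16a10*, which carries aromatic amino acids, and a Cbfa2t3 peak of 282.6 that lay between genes, at -82348 bases from the start site of *Slc25a33*, which carries pyrimidine nucleotides into mitochondria. Neither gene was called in any comparison.

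Of the called genes plotted by library, *Slc44a2*, *Slc50a1* and *Slc30a4* were nearest to a peak, and the centre of the strongest peak of the last 2 is shown, read from GRCm38 on the plus strand, to set the bound sequence beside the change. *Slc44a2* had 2 Cbfa2t3 peaks in an intron, with scores of 144.5 and 63.7, and no Zbtb1 peak. *Slc50a1* had 1 Zbtb1 peak at its promoter (score 69.7), and of this window only the part outside its first exon is given. *Slc30a4* had overlapping peaks of Cbfa2t3 (31.6) and Zbtb1 (20.3) between genes, at 29651 bases past its start site beyond the far end of the gene. *Slc49a4*, *Slc16a3* and *Slc16a5* were nearest to no peak. Capitals mark the Runx core motif TGTGGT, or ACCACA on the other strand, and the motif TGGTGGT, or ACCACCA.
Slc50a1, Zbtb1 peak, chr3:89270571-89270742: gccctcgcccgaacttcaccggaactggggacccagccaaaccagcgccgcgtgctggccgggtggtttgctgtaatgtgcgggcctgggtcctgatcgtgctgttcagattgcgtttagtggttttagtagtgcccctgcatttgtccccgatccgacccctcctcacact
Slc30a4, Cbfa2t3 peak, chr2:122672913-122673112: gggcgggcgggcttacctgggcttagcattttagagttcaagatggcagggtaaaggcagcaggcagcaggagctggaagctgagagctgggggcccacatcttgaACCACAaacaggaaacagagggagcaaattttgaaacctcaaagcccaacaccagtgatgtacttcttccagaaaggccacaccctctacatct

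The peak centre of *Slc30a4* held 1 ACCACA, and that of *Slc50a1* held neither motif in these letters. In 200 bases at the centre, TGTGGT was present in 21 of the 62 Zbtb1 peaks of Slc genes (33.9%), against 41.3% of all Zbtb1 peaks, and in 29 of the 59 Cbfa2t3 peaks (49.2%), against 43.7%. TGGTGGT, which does not contain TGTGGT but can share letters with one that precedes it, was present in 5 of the 62 (8.06%, against 15.8%) and in 8 of the 59 (13.6%, against 7.02%). The printed windows of *Slc50a1* and *Slc30a4* had a GC content of 61% and 53%.

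The called genes described above lie on several chromosomes, given here from GENCODE vM21 on GRCm38, the same assembly as mm10. *Slc44a2* spans chr9:21320698-21355028 and *Slc49a4* chr16:35694062-35769356. *Slc16a3* and *Slc16a5*, the 2 called members of the Slc16 family, lie on the same chromosome at chr11:120948480-120960868 and chr11:115462474-115474398. *Slc30a4* lies at chr2:122681233-122702663 and *Slc50a1* at chr3:89268246-89270570. All 153 genes were found in this annotation, 8 with exons overlapped by another gene on the same strand and 46 on the other strand. For 7 genes such an overlap lay within the last 1000 bases.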

How the data were processed

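QuantSeq of 3′ mRNA ends was analysed in 15 libraries, 3 for each of 5 targets (a pool of 2 guides each), grouped by the titles in the labels. Reads had been trimmed with fastp and aligned with STAR to mm10, and the deposited table gives read counts that the authors scaled to the same total in every library; their values, called TPM by the authors, behave as CPM, since every value was a whole number of reads within 0.1 read. The deposited peak lists carry the authors' HOMER score for each peak, from Bowtie 1.1.1 alignments, with matched input, reproducible peaks (IDR) and a score of at least 15. The counter and whether it used strand are not given in the sources used here. From 55422 lines of the table, 1 without an identifier was left out (at most 5.86e-05% of a library).

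Here log2(CPM + 1) was fitted with limma 3.58.1 (R 4.3.3) over the 11554 genes with a mean of at least 1 CPM, all 15 libraries in 1 fit, with Benjamini-Hochberg adjustment over all of them and a two-sided threshold of 0.05. This pools the spread over the 5 groups. The scripts were tested on simulated data. The genes named are those called in any comparison, the 3 with the smallest p in comparisons with fewer than 3 calls, the 10 highest, those at the limit of 1 CPM, the non-carriers and the highest of each role. The values of 1 called gene are not reported here. The genes, lists and rules were chosen with earlier results of these data known. Roles were assigned by family number. Alternatives were a pseudocount of 0.1, no filter or a mean of at least 10, the 6 libraries of a comparison alone, a replicate block, size factors, edgeR 4.0.16 and DESeq2 1.42.0 (both run on whole reads recovered from the CPM values), the study's thresholds (unadjusted p under 0.05, log2 fold change beyond 1, mean above 10), the 9 other gene-targeting libraries as controls, and each library left out. Peaks were assigned by the authors' nearest gene, and motifs were searched in 200 bases at each centre in the RefSeq GRCm38 sequence. Python 3.11.15 was used for the summaries.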

Additional observations from a re-analysis of the deposited data

Results flagged for a closer look

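*Slc16a5* differed between the effects of 2 guide pools in a direct comparison of the sgZbtb1 with the sgCbfa2t3 libraries (-2.12 on the log2(CPM + 1) scale, limma adjusted p = 0.00259), which is a test of the difference between the 2 changes from sgControl. Against sgControl the changes were -0.84 and 1.29, of opposite sign, and neither passed the threshold alone. The gene was at 3, 3 and 6 reads in the 3 libraries labelled sgZbtb1.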

How the results depend on the processing

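Of the 153 Slc genes, 5 were called in sgZbtb1 against sgControl with limma. With all genes above 0 in the fit this was 2 (*Slc44a2* and *Slc49a4*), and under the study's thresholds 2 (*Slc50a1* among them). In sgCbfa2t3 the 1 call became 0 with all genes above 0, with the 6 libraries alone, with the 9 other libraries as controls and with DESeq2, which gave *Slc30a4* and 118 further Slc genes no adjusted p, and 2 under the study's thresholds (*Slc16a5* and *Slc30a4*). Between sgZbtb1 and sgCbfa2t3 the 1 call became 0 with a mean of at least 10, since *Slc16a5* was then not tested, and 2 under the study's thresholds (*Slc16a5* among them). In sgLmo2 the count rose from 0 to 1 (*Slc49a4*) with the 9 other libraries as controls, and in sgCbfa2t2 from 0 to 1 (*Slc2a6*) under the study's thresholds. With 1 library left out, the count ranged from 2 to 7 in sgZbtb1 (2 without sgControl replicate 2 or sgZbtb1 replicate 3, 3 without sgZbtb1 replicate 1) and from 0 to 1 in sgCbfa2t3 (0 without sgControl replicate 1, 2 or 3, or sgCbfa2t3 replicate 2 or 3), and stayed at 0, 0 and 1 in the other comparisons. The share of Slc genes with a Zbtb1 peak was 17% at a score of at least 30 (all genes 14.3%), that with a Cbfa2t3 peak was 14.4% at this score (12.8%) and 12.4% within 10 kb (12.6%), and that with both was 4.58% at this score (2.46%). Apart from the changes whose construction shows it (fewer or more genes tested, fewer libraries), the cause was not tested. No change of sign was found for any of the 7 called genes. Size factors moved the median of all genes by at most 0.016 on the log2 scale. With the replicate block, 6 genes were called in sgZbtb1, *Slc1a5* in addition, and 0, 0, 1 and 1 in the other comparisons. Replicate numbers were not taken to pair libraries. Deviations of libraries with the same number correlated by 0.041 on average (-0.013 to 0.113), and 2 of 30 pairs exceeded 0.1. With different numbers the average was -0.020, and this difference was not tested. At 1705416 reads in the shallowest library, the 48 genes under 10 CPM limit what can be seen.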
